A study of Thermothelomyces thermophilus ATCC 42464 with 4 samples.

Results

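The 142 genes described here form a pool of abundant transcripts of the thermophilic cellulolytic fungus *Myceliophthora thermophila* (*Thermothelomyces thermophilus* ATCC 42464) on cellulose. The main cellulase transcripts were set apart, as were genes beyond fold limits given below, not all of them described as cellulases. The 142 genes were selected on measured values, from 8716 genes (1.63%). A gene was taken when its mean over the 2 wild-type (MtWT) libraries reached 1000 FPKM, a read density per transcript length and library size. Its log2 difference between the strains, on mean FPKM + 1, also had to lie between −2 and 2. Identifiers of unannotated transcripts (BGI_novel) and 7 identifiers, mostly of the cellulase set, were left out. In all, 159 genes reached 1000 FPKM in MtWT. Of the other 17, 6 were among the 7 identifiers, 10 lay beyond the fold limits and 1 was an unannotated transcript. The seventh identifier, MYCTH_2303011, stood at only 81.5 FPKM in MtWT. Both the level and the difference between strains chose the members, so all their values are given as a description, with no test.

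The study asked how loss of a transcription factor alters gene expression on cellulose, and 4 RNA-seq libraries were compared. They comprised 2 of MtWT and 2 of a strain labelled ΔMtTrh-1, a deletion of MtTrh-1 in the same ATCC 42464 background. All mycelia were pregrown for 16 h at 45°C in Vogel's salts with 2% glucose, washed, and shifted for 4 h to 2% Avicel, a crystalline cellulose. The study's methods describe a CRISPR-Cas9 deletion of *Mttrc-1* (MYCTH_90344) with a marker cassette, and MtTrh-1 was taken to be this gene, an inference that was not tested. The sources used here do not say whether the sequenced strain was 1 transformant. The labels also do not say whether the libraries came from separate cultures, so the spread between them may be technical.

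The gene taken as deleted ran against the label. MYCTH_90344 had 13.3 and 14.5 FPKM in MtWT, against 215 and 223 FPKM under the ΔMtTrh-1 label. By contrast, transcripts of the cellulase set stood lower under that label, with log2 differences of −1.82 for MYCTH_109566, −1.31 for MYCTH_66729 and −1.39 for MYCTH_86753. Every direction below is therefore that of the labels, and an exchange of the labels would reverse its sign and change which genes make up the pool. Whether the labels were exchanged, or whether MtTrh-1 is a gene other than MYCTH_90344, was not tested. Total FPKM ran from 725984 to 741923 per library, and the number of reads behind these sums is unknown. The smallest p that an exact permutation test of 2 against 2 allows is 0.33. Across 7525 genes of at least 1 FPKM on average, limma on log2(FPKM + 1) called 4.96% lower and 5.3% higher in the libraries labelled ΔMtTrh-1. A call needed a log2 difference beyond 1 in size and an adjusted p below 0.05.

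A limited number of genes usually supplies much of the mRNA of a growing fungal cell, and genes for ribosomal proteins, elongation factors, histones and chaperones are typical among them. Because a share of total FPKM is a share of a fixed whole, a drop in 1 group of transcripts raises the shares of others even when their own levels stay put. On cellulose, saprotrophic fungi add secreted cellobiohydrolases, endoglucanases and oxidative polysaccharide enzymes to this housekeeping pool.

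Most of the pool could not be given a function. All 142 genes were found in RefSeq (assembly ASM22609v1) as locus tags without product names. Product descriptions were at hand for 29, of which 1 reads "Hypothetical protein", and the other 113 are given by identifier only. The label "outside the cellulase set" could thus be examined for the described genes alone. Among these were 10 ribosomal proteins, 4 histones, 3 heat shock proteins and the translation elongation factor gene *tef-1*. There were also 2 carbohydrate-active enzymes, a xylanase family member and a mixed-linked glucanase. The remaining named descriptions cover a sugar transporter, a subunit of the respiratory chain, a thiol antioxidant, a globin, an aromatic-ring hydroxylase, an aldose 1-epimerase, the nascent polypeptide-associated complex and an oxidoreductase.

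Mean levels in MtWT ran from 1006 to 11826 FPKM with a median of 1593, and 96 of the 142 genes were under 2000 FPKM. In the libraries labelled ΔMtTrh-1 the same genes ran from 284 to 11993 FPKM with a median of 1415. The libraries of a strain lay close together. The coefficient of variation had a median of 3.17% in MtWT and 2.51% in the libraries labelled ΔMtTrh-1, with maxima of 16.8% and 11.5%. In MtWT, 132 genes reached 1000 FPKM in both libraries and 10 in only 1 of them. All 4 libraries were at 1000 FPKM or more for 105 genes.

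**Figure D1:**
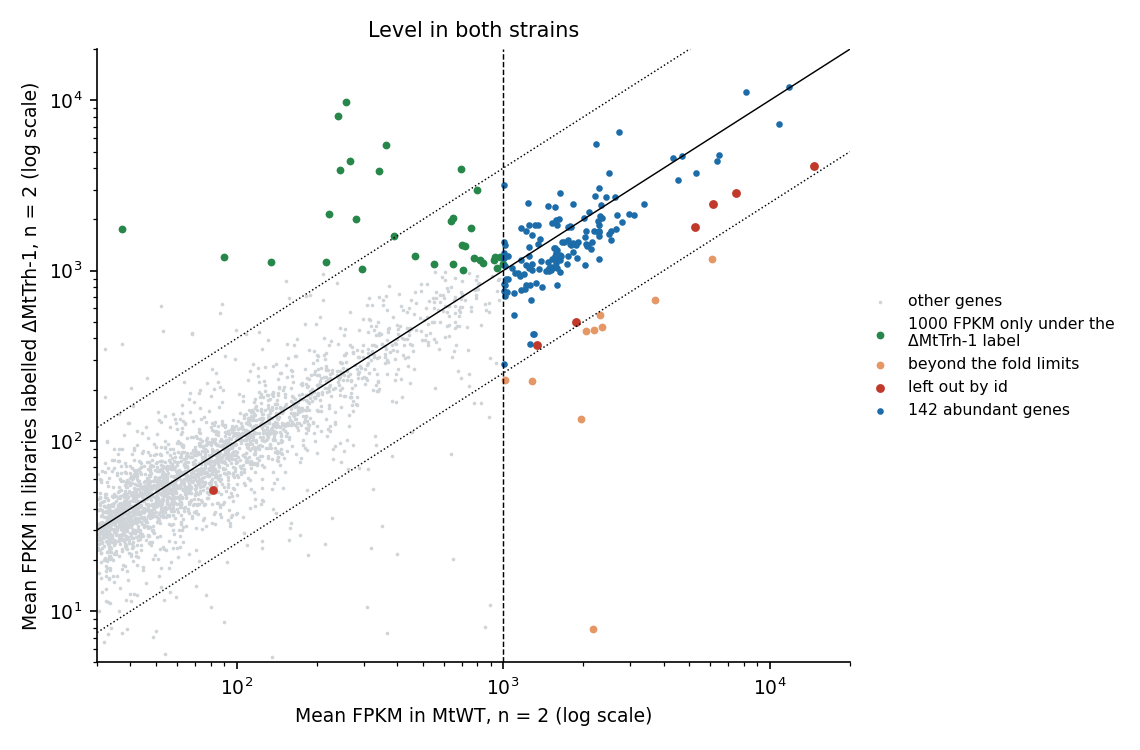
Mean FPKM of each gene for MtWT (x axis) and for the libraries labelled ΔMtTrh-1 (y axis), both on log scales and n = 2 per strain, with equality as a solid line, a log2 difference of 2 either way as dotted lines and 1000 FPKM as a dashed line (genes under 30 FPKM in MtWT or 5 FPKM under the ΔMtTrh-1 label are outside the axes). The 142 abundant genes (blue) lie between 1006 and 11826 FPKM in MtWT, with 100 of them under the line of equality.

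The 3 most abundant genes, all undescribed, differed from each other in direction. MYCTH_2300304 stood at 11842 and 11810 FPKM in MtWT and at 11731 and 12256 FPKM under the ΔMtTrh-1 label. MYCTH_2303328 stood at 11123 and 10601 FPKM in MtWT and at 7219 and 7264 FPKM under the ΔMtTrh-1 label. MYCTH_2141513 stood at 7576 and 8790 FPKM in MtWT and at 11081 and 11344 FPKM under that label. The first overlapped between the strains, the second was lower in both libraries labelled ΔMtTrh-1 and the third was higher in both. On the log2 scale the differences were 0.02, −0.58 and 0.45. The first ranked second among all genes in MtWT, below the cellobiohydrolase gene MYCTH_109566, and ranked first in the libraries labelled ΔMtTrh-1. The 3 genes together held 4.18% of total FPKM in either strain, the lower one being offset by the higher one.

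The next genes in order were mostly lower under the ΔMtTrh-1 label. MYCTH_87219 went from a mean of 6443 ± 62.1 FPKM (SD, n = 2) in MtWT to 4766 ± 189, MYCTH_2304231 from 6372 ± 146 to 4395 ± 222, and MYCTH_2133976 from 5292 ± 269 to 3735 ± 431. For these 3 undescribed genes both libraries labelled ΔMtTrh-1 were below both MtWT libraries. MYCTH_2297659 (log2 difference 0.02) overlapped between the strains, and MYCTH_2311855 (0.09) was above MtWT in both libraries labelled ΔMtTrh-1. From there to the twentieth gene, MYCTH_2315910, MYCTH_2314609, MYCTH_2315649, MYCTH_2308456, MYCTH_2314011, MYCTH_2297948, MYCTH_2302271 and MYCTH_85556 all had log2 differences between −0.74 and −0.33. Of the 20 most abundant genes, 14 were lower and 6 higher, with a median log2 difference of −0.46.

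The pool as a whole stood modestly lower in the libraries labelled ΔMtTrh-1, in which MYCTH_90344 itself was higher. The log2 difference was below 0 for 100 genes and above 0 for 42. Its median was −0.33, with quartiles at −0.54 and 0.05, against a median of 0.03 and quartiles at −0.29 and 0.33 over the 7525 genes tested. Of the members, 73 (51.4%) lay between −0.75 and −0.25, where 19.2% of tested genes lay. This band encloses the members' own median and lower quartile, so the contrast is a description and no test. Both libraries labelled ΔMtTrh-1 were below both MtWT libraries for 97 genes, a pattern shown by 39% of tested genes, and above both for 34, a pattern shown by 43.8%. The libraries of the strains overlapped for 11. Limma called 4 members lower and 4 higher, beside the backgrounds of 4.96% and 5.3%. From these counts nothing is read, since membership required a high MtWT level and a limited difference.

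**Figure D2:**
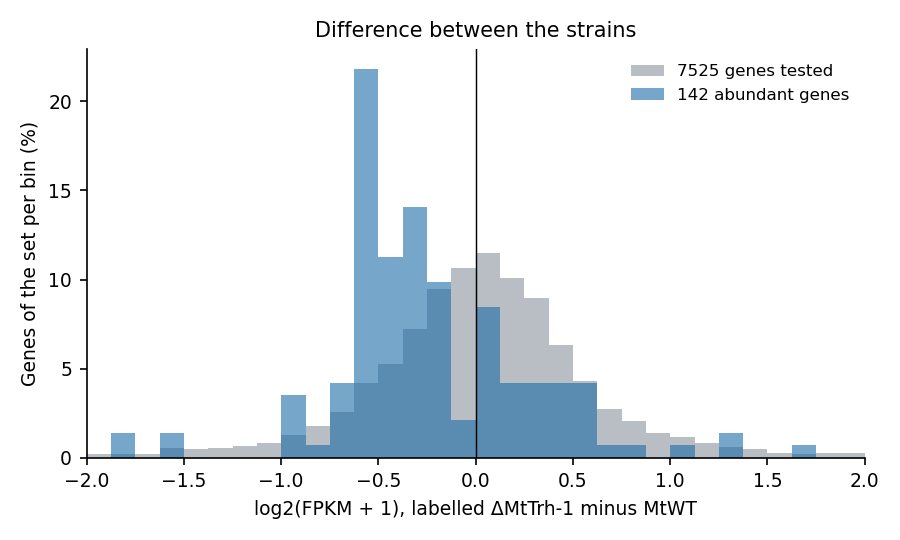
Distribution of the log2 difference (libraries labelled ΔMtTrh-1 minus MtWT, of mean FPKM + 1, n = 2 per strain) over the 142 abundant genes and over the 7525 genes tested, each as a percentage of its own genes, with differences beyond 2 in size outside the axis. The abundant genes lie mostly below 0, with a median of −0.33. Of them, 51.4% lie between −0.75 and −0.25 against 19.2% of tested genes, in a band that encloses their own median.

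Ribosomal proteins, the structural components of the ribosome, were the largest described group. All 10 members were lower in both libraries labelled ΔMtTrh-1, an order shown by 97 of the 142 members and 39% of tested genes. Their log2 differences ran from −0.91 to −0.27 with a median of −0.45. The largest difference belonged to MYCTH_2064349, of the S7e family of the small subunit, at 2148 and 1919 FPKM in MtWT and 1050.3 and 1117 FPKM under the ΔMtTrh-1 label. MYCTH_2039818, of the S17e family, stood at 2296 and 2281 FPKM against 1577 and 1638. MYCTH_116020, of the L34e family of the large subunit, stood at 2223 and 2147 FPKM against 1746 and 1693. The strains were well apart for these 3 genes. MYCTH_2088473, described as S17, had the smallest log2 difference, with 2179 and 1924 FPKM in MtWT and 1675 and 1733 FPKM under the ΔMtTrh-1 label. The other 6, described as L37e, S19/S15, L2, 60S, L18ae and L5, had MtWT means of 1008 to 1778 FPKM and differences from −0.52 to −0.27.

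The ribosomal genes too low for the pool lay closer to 0. Of 23 described ribosomal protein genes tested, the 13 outside the pool had MtWT means of 43.9 to 908 FPKM, log2 differences from −0.18 to 0.27 and a median of 0.03. Among them 5 were lower in both libraries labelled ΔMtTrh-1, 3 were higher in both and 5 overlapped. Of all tested genes, 39% were lower in both and 43.8% higher. Limma called none of the 23. Just under the limit, MYCTH_2062887, described as an L30 core protein, stood at 866 and 950.1 FPKM in MtWT and 871 and 1001 FPKM under the ΔMtTrh-1 label. Several of the less abundant genes carry descriptions of bacterial and organelle ribosomes, such as the bacterial-type S12 protein MYCTH_2096341, L33 (MYCTH_2119125) and a mitochondrial ribosomal protein (MYCTH_2082154), whereas descriptions ending in e, such as S7e and L34e, name families of eukaryotic and archaeal ribosomes. The descriptions do not separate the groups, as L7Ae (MYCTH_2091453) and L4/L1e (MYCTH_2059227) were outside the pool. Members described as S17, L2 and L5 lack the ending. Members and others therefore differ in level and perhaps in part in kind, which cannot be told apart here. The 23 genes held 2.65% ± 0.093 of total FPKM (SD, n = 2) in MtWT and 2.07% ± 0.0094 in the libraries labelled ΔMtTrh-1.

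Both described members linked to translation outside the ribosome stood lower as well. *tef-1* (MYCTH_2298136), which encodes an elongation factor that carries aminoacyl-tRNA to the ribosome and whose promoter the study used for strong constitutive expression, stood at 4775 and 4254 FPKM in MtWT and 3294 and 3554 FPKM under the ΔMtTrh-1 label. Its log2 difference of −0.40 was close to the median of the ribosomal members. MYCTH_110717, of the nascent polypeptide-associated complex that binds new protein chains as they leave the ribosome, stood at 1056 and 997 FPKM against 918 and 869.9, a log2 difference of −0.20. These genes were grouped after their descriptions were read, and the word list for translation factors held only *tef-1* and a subunit of the transcription factor TFIIA that its words matched by mistake, at 0.67.

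Histones package DNA into nucleosomes, and 4 of the 5 described histone genes tested were in the pool. All 4 were lower in both libraries labelled ΔMtTrh-1, an order shown by 97 of the 142 members and 39% of tested genes. The H2B gene MYCTH_112136 stood at 2457 and 2635 FPKM in MtWT and 1740.4 and 1694 FPKM under the ΔMtTrh-1 label. The H2A gene MYCTH_112137, its neighbour in the RefSeq gene order, stood at 1869 and 1952 FPKM against 1492 and 1475. The pair thus went in the same direction, with log2 differences of −0.57 and −0.37. The 2 H4 genes had −0.58 (MYCTH_2071169) and −0.20 (MYCTH_111405). The remaining histone gene had an MtWT mean of 132 FPKM and a difference of −0.05. Limma called none of the 5. The histone list held 1.05% ± 0.030 of total FPKM in MtWT and 0.796% ± 0.0094 under the ΔMtTrh-1 label.

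The 3 heat shock proteins of the pool, which bind unfolded proteins, did not stand lower. The Hsp70 gene MYCTH_112686 stood at 2660 and 2580 FPKM in MtWT and 2658 and 2736 FPKM under the ΔMtTrh-1 label, so that the strains overlapped. The small heat shock gene MYCTH_110532 (Hsp20) stood at 2265 and 2333 FPKM against 3110 and 3009. A second Hsp20 gene, MYCTH_109510, stood at 1598 and 1652 FPKM against 2004 and 2011. Both Hsp20 genes were above MtWT in both libraries labelled ΔMtTrh-1, by 0.41 and 0.30 on the log2 scale. The 9 described chaperone genes outside the pool had a median of −0.02. Both libraries labelled ΔMtTrh-1 were below MtWT for 4 of these and above for 4, and 1 overlapped, beside 39% below and 43.8% above over all tested genes. The lower ones included the DnaJ genes MYCTH_2114944 (−0.78) and MYCTH_112086 (−0.65), with MtWT means of 4.2 and 34.9 FPKM. The higher ones included the Cpn60 gene MYCTH_2097570 (0.47) and the Hsp70 gene MYCTH_2086391 (0.55), with MtWT means of 387 and 339 FPKM. Limma called none of the 12. The chaperone list held 1.05% ± 0.0049 of total FPKM in MtWT and 1.28% ± 0.0054 under the ΔMtTrh-1 label.

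**Figure D3:**
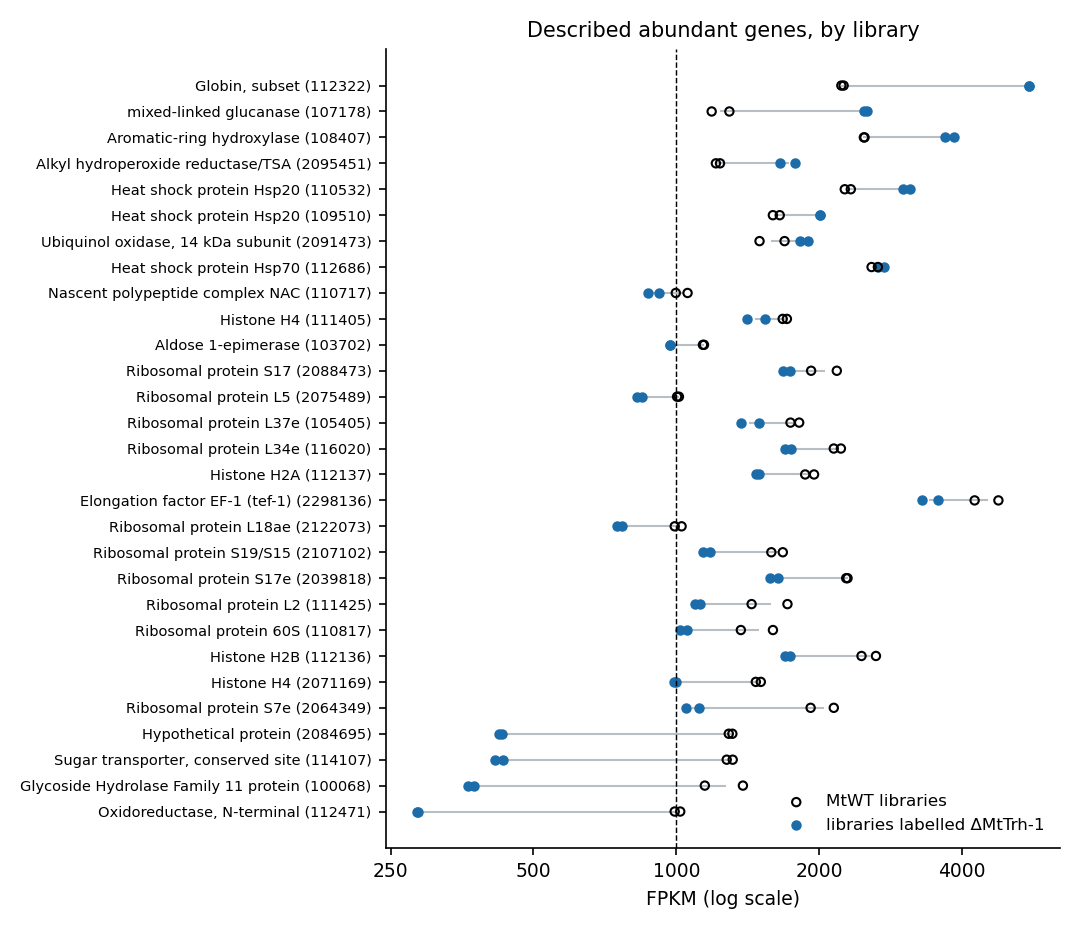
FPKM of the described abundant genes in each of the 4 libraries, with open points for MtWT and filled points for the libraries labelled ΔMtTrh-1, on a log scale, a line joining the means and 1000 FPKM dashed. The 10 ribosomal proteins and 4 histones have both libraries labelled ΔMtTrh-1 below both MtWT libraries, and the 2 Hsp20 genes have them above. Of all tested genes, 39% show the first order and 43.8% the second.

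Among the 29 described members, 2 were carbohydrate-active enzymes by their descriptions, and they went opposite ways. How many the 113 undescribed members hold is unknown. The fold limits also removed such enzymes at this level, among them MYCTH_112089 and the xylanase gene MYCTH_112050. MYCTH_100068, of glycoside hydrolase family 11, a family of xylanases, stood at 1148 and 1382 FPKM in MtWT and 364 and 374 FPKM in the libraries labelled ΔMtTrh-1, in which MYCTH_90344 was higher. MYCTH_107178, a mixed-linked glucanase, an enzyme type that cleaves glucans with β-1,3 and β-1,4 bonds, stood at 1187 and 1294 FPKM against 2528 and 2489. Their log2 differences were −1.77 and 1.02. Of the 44 described carbohydrate-active enzyme genes tested, limma called 18 lower and 4 higher, beside 4.96% and 5.3% of all tested genes. Several of those called lower had been set apart from the pool, by identifier (such as MYCTH_109566 and MYCTH_111372) or by the lower fold limit (such as MYCTH_112089 and *cbdA*). The median of the 44 was −0.61. The first of the 2 was thus on the side of most called genes of the list and the second was on the other. The sugar transporter gene MYCTH_114107 stood at 1315 and 1277 FPKM in MtWT and 415 and 432 FPKM under the ΔMtTrh-1 label, a log2 difference of −1.61. It was the only 1 of 53 described transporter genes tested to reach the pool. Limma called 7 of the 53 lower and 7 higher, beside the same 4.96% and 5.3%.

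The other described genes went both ways. The globin MYCTH_112322, of a family of haem proteins that bind oxygen, stood at 2252 and 2228 FPKM in MtWT and 5526 and 5542 FPKM in the libraries labelled ΔMtTrh-1, a log2 difference of 1.30. The aromatic-ring hydroxylase MYCTH_108407 stood at 2493 and 2485 FPKM against 3677 and 3843, a difference of 0.59. MYCTH_2095451, of the alkyl hydroperoxide reductase family that reduces peroxides, stood at 1236 and 1212 FPKM against 1654 and 1783, a difference of 0.49. These 3 genes had both libraries labelled ΔMtTrh-1 above both MtWT libraries. So had MYCTH_2091473, described as a small subunit of a ubiquinol oxidase, with a difference of 0.22. MYCTH_112471, described by an N-terminal oxidoreductase domain, stood at 1019 and 992 FPKM in MtWT and 285 and 284 FPKM under the ΔMtTrh-1 label, and its difference of −1.82 was the lowest in the pool. Of the 9 described redox defence genes tested, limma called none lower and 2 higher, neither of them a member. Over all tested genes it called 4.96% lower and 5.3% higher. Of 23 genes matched by words for mitochondrial energy metabolism, 1 was called lower and 1 higher, the latter being MYCTH_2066622, described as cytochrome b-245 heavy chain, a name of NADPH oxidase subunits rather than of mitochondrial proteins.

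Of the described members that remain, the aldose 1-epimerase MYCTH_103702, an enzyme that interconverts the anomers of sugars, had means of 1141 ± 4.19 FPKM (SD, n = 2) in MtWT and 969 ± 2.02 under the ΔMtTrh-1 label. MYCTH_2084695, the hypothetical protein, stood at 1290.0 and 1313 FPKM in MtWT and 423 and 429 FPKM under that label. Its difference of −1.61 put it with MYCTH_112471, MYCTH_100068 and MYCTH_114107 as the 4 members lower by more than 1 on the log2 scale. No other member was below −0.99.

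The undescribed genes had nearly the same median as the described ones. Of 113 undescribed genes, 79 were lower and 34 higher with a median of −0.33, and of 29 described genes 21 were lower and 8 higher with a median of −0.35. The members higher by more than 1 on the log2 scale were the globin and the glucanase together with 2 undescribed genes. MYCTH_2310462 stood at 1044 and 975 FPKM in MtWT and 3216 and 3146 FPKM in the libraries labelled ΔMtTrh-1, the highest difference of the pool at 1.65. MYCTH_2297550 stood at 2913 and 2533 FPKM against 6401 and 6744, a difference of 1.27. It gained the most FPKM of the pool, 3849, and went from rank 20 among all genes in MtWT to rank 6. The next gains were those of the globin (3294 FPKM), MYCTH_2141513 (3029), MYCTH_2310462 (2171) and the aromatic-ring hydroxylase (1271). The largest losses were those of MYCTH_2303328, which fell by 3620 FPKM, MYCTH_2304231 (−1977 FPKM), MYCTH_87219 (−1677), MYCTH_2133976 (−1557) and MYCTH_94171 (−1107).

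The order of genes was reshuffled only in part. In the libraries labelled ΔMtTrh-1, 114 members kept a mean of at least 1000 FPKM and 28 did not. By rank among all genes, 99 members moved down and 43 up. Members filled 39 of the top 50 places in MtWT and 35 under the ΔMtTrh-1 label, and 6 and 7 of the top 10.

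The limits of the pool cut through a continuous range. The 2 members nearest to 1000 FPKM were MYCTH_2075489, ribosomal protein L5, at 1008 FPKM and MYCTH_112471 at 1006 FPKM, and the 2 genes just below were MYCTH_2305043 at 998 and MYCTH_2313632 at 974 FPKM. At the lower fold limit, MYCTH_112471 (−1.82) and MYCTH_100068 (−1.77) were the nearest inside. Just outside were MYCTH_110028 (−2.08), described by a basic helix-loop-helix region, and the xylanase gene MYCTH_112050 (−2.16). At the upper limit MYCTH_2310462 (1.65) and MYCTH_112322 (1.30) were nearest inside, and no gene of the MtWT level lay outside.

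Some members lay beside each other in the genome. By the RefSeq gene order there were 12 pairs of directly neighbouring members, involving 23 genes. In 7 pairs both genes were lower under the ΔMtTrh-1 label, in 3 both were higher and in 2 they went opposite ways. Of all members, 100 were lower and 42 higher, so nothing is read from these pair counts. Next to MYCTH_2310462 (1.65) lay MYCTH_2310464, also higher but by only 0.33. Next to MYCTH_2297550 (1.27) lay MYCTH_2297548, which had −0.20.

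The share of the whole transcript sum was then followed. The 142 genes held 38.8% and 38.2% of total FPKM in MtWT and 35.4% and 35.5% in the libraries labelled ΔMtTrh-1. The mean went from 38.5% ± 0.41 (SD, n = 2) to 35.4% ± 0.058, and the share fell by 3.09 percentage points. This is a description only, since the members were selected on a high MtWT level. The summed FPKM, which are scaled to library size and give no absolute amount, went from 284830 to 257760. The 100 lower members went from 26.3% ± 0.55 to 19.2% ± 0.12 of the total, and the 42 higher members from 12.2% ± 0.14 to 16.2% ± 0.18. Because the sign of the same difference split these groups, the direction of both changes came from the split. The 10 most abundant members went from 8.91% ± 0.089 to 8.05% ± 0.12, and the other 132 from 29.6% ± 0.50 to 27.4% ± 0.060.

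Transcripts set apart from the pool, among them those of the cellulase set, took a smaller share over the same comparison. The 7 identifiers left out, which include the cellobiohydrolase gene MYCTH_109566 at 13240 and 16027 FPKM in MtWT and 4339 and 3953 FPKM under the ΔMtTrh-1 label, went from 4.98% ± 0.40 to 1.68% ± 0.032 of total FPKM. The 10 genes beyond the fold limits went from 3.40% ± 0.11 to 0.596% ± 0.0031. They include the lytic polysaccharide monooxygenase gene MYCTH_112089, but not all are described as enzymes of cellulose breakdown. MYCTH_115957, described as a 2OG-Fe(II) oxygenase, had means of 2168 FPKM in MtWT and 7.8 FPKM under the ΔMtTrh-1 label. MYCTH_110028 is described by a basic helix-loop-helix region, and MYCTH_2303045 and MYCTH_33936 had no description. The smaller share of the 10 genes was fixed by the lower fold limit that set them apart. Measured against the sum without both groups, the pool of abundant genes held 42.2% and 41.9% in MtWT and 36.2% and 36.3% in the libraries labelled ΔMtTrh-1. Leaving transcripts that stood lower out of the sum widens this difference by construction.

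The rest of the transcript sum was divided as follows. The 33 genes that reached 1000 FPKM only in the libraries labelled ΔMtTrh-1 went from 2.43% ± 0.017 to 10.5% ± 0.10 of total FPKM, a gain of 8.09 points whose direction was fixed by how they were chosen. The 8495 genes in none of these groups went from 50.2% ± 0.10 to 51.5% ± 0.13. Identifiers of unannotated transcripts (29) went from 0.455% to 0.249%. The number of top genes needed to reach 50% of total FPKM was 183 and 182 in MtWT and 197 and 195 in the libraries labelled ΔMtTrh-1.

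**Figure D4:**
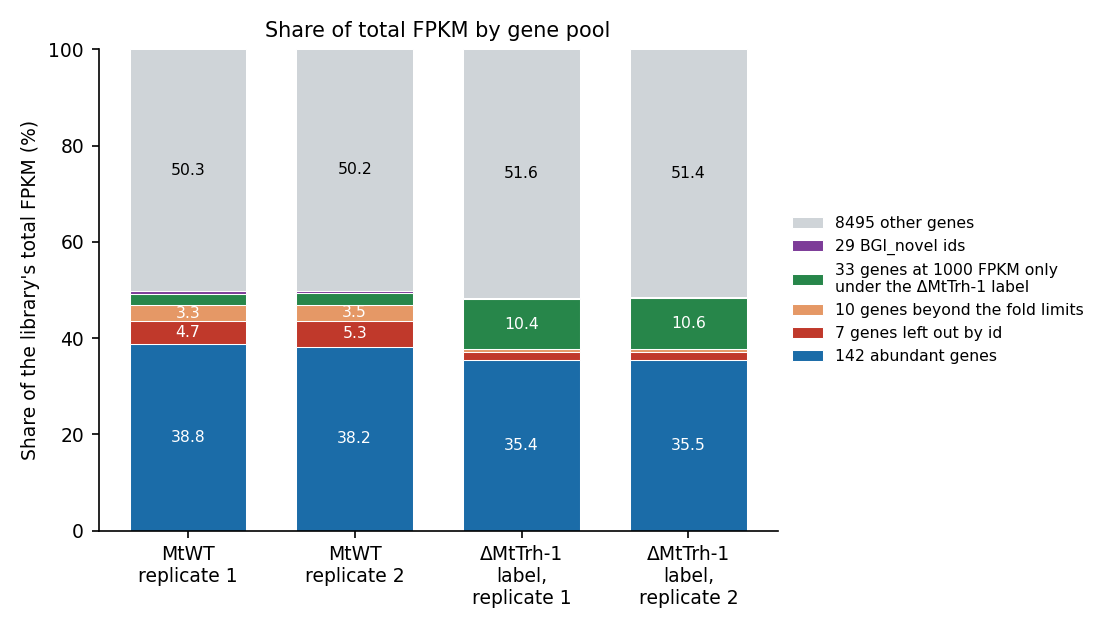
Share of each library's total FPKM (%) held by the 142 abundant genes, the 7 identifiers left out, the 10 genes beyond the fold limits, the 33 genes that reached 1000 FPKM only under the ΔMtTrh-1 label, the 29 BGI_novel identifiers and the other genes, with each bar a library. The abundant genes go from 38.8% and 38.2% in MtWT to 35.4% and 35.5%, and the 33 genes from 2.4% to 10.4% and 10.6%.

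The difference in share depended on which strain set the level. When the same rule was applied to the mean of the libraries labelled ΔMtTrh-1, 133 genes were taken, of which 114 were members (80.3% of the 142 and 85.7% of the 133). Their share was 35.9% ± 0.31 in MtWT and 36.0% ± 0.081 in the libraries labelled ΔMtTrh-1, a difference of 0.19 points with overlapping libraries. With the labels exchanged, these 133 genes would be the pool. Their median log2 difference was still below 0, at −0.18. With the level set by the mean of both strains, the share fell by 1.01 points.

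The same dependence appeared along the whole range of levels. With genes grouped by their MtWT mean, the median log2 difference went from 0.10 at 1 to 10 FPKM through 0.00 and −0.10 to −0.36 at 1000 FPKM and over, a group of 152 genes that includes the genes beyond the fold limits. Grouped by the mean of the libraries labelled ΔMtTrh-1, it stayed between 0.01 and 0.04. Grouped by the mean of both strains, it was 0.06, 0.03, −0.02 and −0.27. For the most abundant genes, the median by the mean of both strains was below 0, but by less than under the MtWT grouping. In that group 60.1% of genes were lower. Lower by more than 1 on the log2 scale were 5.23%, and higher by more than 1 were 11.8%. This is a description only, since the values compared also formed the groups, and the 7 identifiers were left out of each. Under the grouping by the libraries labelled ΔMtTrh-1, the 148 genes at 1000 FPKM and over had a median of 0.01. No fold limits were applied to these groups. Within the fold limits, the 133 genes chosen by those libraries had a median of −0.18.

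**Figure D5:**
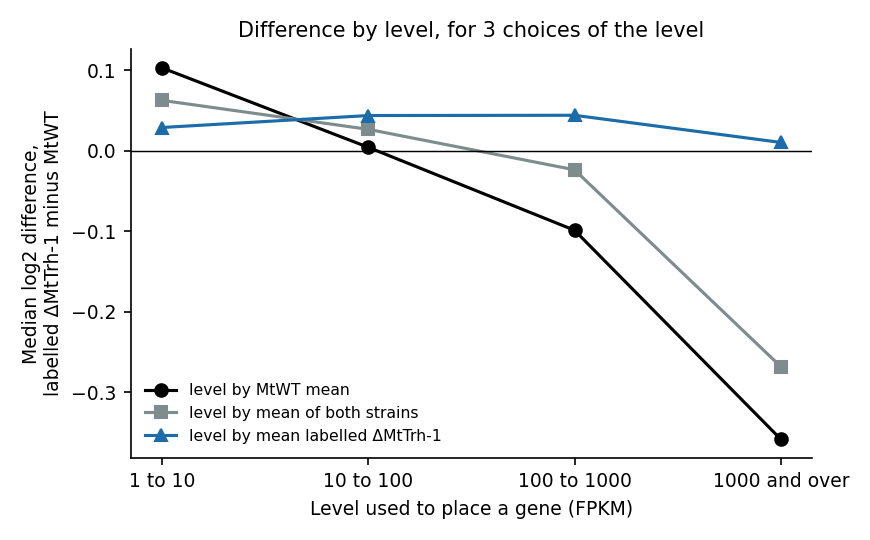
Median log2 difference (libraries labelled ΔMtTrh-1 minus MtWT) of genes grouped by level in FPKM, with the level taken from MtWT, from the libraries labelled ΔMtTrh-1 or from the mean of both strains (the 7 identifiers and BGI_novel identifiers left out). At 1000 FPKM and over the medians are −0.36, 0.01 and −0.27, whereas at 1 to 10 FPKM they are 0.10, 0.03 and 0.06. No fold limits were applied.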

How the data were processed

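The authors deposited 1 table of FPKM for 8716 genes in 4 libraries (4 h of Avicel, 2 per strain). HISAT and Bowtie2 are listed, without versions, in the submitters' processing notes. For the quantifier, build and annotation, nothing is given in the sources used here. The study's methods describe 3 biological replicates and counting with TopHat and HTSeq-count, and cite another deposited data set, whereas the labels give 2 libraries per strain, so how those methods apply to these FPKM is unclear. FPKM depend on the gene length assumed and sum differently in each library. The number of reads is unknown, so no counting error is given.

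The members and gene lists were chosen with earlier results of these data known, and some lists were corrected after their matches were read. Shares are each library's summed FPKM over its total. As background, limma (version 3.58.1, R version 4.3.3, intensity trend, no covariate) was run on log2(FPKM + 1) over the 7525 genes averaging 1 FPKM or more, with Benjamini-Hochberg adjustment, after being tested on simulated data. This scale understates changes of low genes. Lists were matched by words in descriptions held for 1490 genes of the study's table, of which only part was at hand.

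Named genes were the 20 highest members, the 5 largest gains and losses of FPKM, up to 4 members per list, the 2 genes on each side of each limit, and, beyond that rule, all described members. The remaining members are given as counts. RefSeq assembly ASM22609v1 held 8681 of the 8716 identifiers and served only for gene order. Alternatives covered the level, the fold limits, the identifiers left out, the strain that sets the level, the pseudocount, filter and scaling, a replicate block, and each library left out in turn. Plots were drawn with matplotlib 3.10.9.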

Additional observations from a re-analysis of the deposited data

How the results depend on the processing

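The count of 142 genes became 257 at a level of 500 FPKM and 46 at 2000 FPKM, and 136 to 143 when each library was left out. The share difference of −3.09 points became −2.40 at 500 FPKM, −1.63 at 2000 FPKM, −4.11 with log2 differences held within 1, −5.89 with no fold limit and −6.39 with the 7 identifiers kept. It was −5.79 against the sum without the 7 identifiers and the genes beyond the fold limits, −1.01 with the level set by both strains and 0.19, with overlapping libraries, when the libraries labelled ΔMtTrh-1 set the level. Leaving out each library gave −3.69 to −3.02. The median log2 difference of −0.33 became −0.20 at 500 FPKM, −0.41 at 2000 FPKM, −0.27 and −0.18 with the level set by both strains and by the libraries labelled ΔMtTrh-1, and −0.37 to −0.31 when each library was left out. Pseudocounts, scaling and the unannotated identifiers moved it or the share by less than the spread between libraries. Limma called 772 genes, 375 with a pseudocount of 10, 951 with a pseudocount of 0.1, 546 at a mean of at least 10 FPKM, and 756 to 789 when each library was left out, where the lone library is assumed to vary like those of the other strain. A replicate block gave 773. Libraries of the same number did not deviate together (r = −0.02 over 7525 genes), and the labels give no source for a pairing.

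Weighting FPKM by protein length was not run, as no protein table was used here. The depth behind the FPKM is unknown, and 113 of the 142 genes have no description here, so the makeup of the pool is known only in part. The causes of the dependence on the level were not tested.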

Other observations

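The 33 genes that reached 1000 FPKM only in the libraries labelled ΔMtTrh-1 were chosen by that outcome and are described with no test. Of these, 14 lay beyond the fold limits and 27 had no description at hand. The largest were the undescribed MYCTH_82772, at 259 and 255 FPKM in MtWT and 9522 and 9963 FPKM under the ΔMtTrh-1 label, and MYCTH_69746, at 252 and 230.1 FPKM against 8156 and 7988. They took ranks 3 and 4 among all genes in the libraries labelled ΔMtTrh-1, directly below the abundant genes MYCTH_2300304 and MYCTH_2141513.

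The 6 described genes of this group had mixed descriptions. The transferase MYCTH_11658 stood at 371 and 359 FPKM in MtWT and 5292 and 5677 FPKM under the ΔMtTrh-1 label. The glutathione S-transferase MYCTH_112025, of a family that conjugates glutathione to electrophilic compounds, stood at 644 and 656 FPKM against 2085 and 2000.3. The Barwin-related endoglucanase MYCTH_2090891 stood at 228 and 205 FPKM against 1153 and 1086, opposite in direction to the cellulase transcripts left out of the pool. The log2 difference was 3.05 for the mercuric reductase MYCTH_2084531 and 3.73 for MYCTH_108317, which has a phosphopantetheine attachment site. MYCTH_110674, with a carbohydrate-binding module of family 50, differed by only 0.31 and crossed the limit from 929 ± 83.7 FPKM (SD, n = 2) in MtWT to 1148 ± 26.7.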
